A study of Mus musculus with 11 samples.

Results

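The comparison described here sets mouse cortex on the side opposite a stroke at 2 months (2 m), after 2 weeks without levetiracetam, against the same side at 1 month (1 m) on levetiracetam (LEV); these are called 2 m and 1 m LEV. Each condition is 1 library, so the comparison uses 2 of the 11 libraries of the series. Its members are the genes with a mean of at least 5 CPM, tags scaled to the total of the library, over the 2 libraries, which were 12555 of the 22377 genes in the table. The method, CAGE, counts a short tag at the capped 5′ end of each transcript.

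All libraries came from the cerebral cortex of male C57BL/6N mice. Except in the naive library, a stroke was made in the left parietal cortex by photothrombosis, in which light activates the injected dye rose bengal and clots the vessels beneath the lamp. The other libraries used for reference are naive cortex and the non-infarcted side at 7 d, at 7 d with levetiracetam (7 d LEV) and at 1 m without it, and, for the opposite hemisphere, the infarcted side at 1 m LEV and at 2 m. The drug was given in drinking water at 5 mg/mL per the series' design text, which has treatment start 1 month after the stroke, last 2 weeks and be followed by 1 week of withdrawal; the labels, which give 2 weeks of withdrawal, were followed. The design text names mice of 8 to 10 and of 65 to 85 weeks without assigning them to libraries. Neither the number of mice behind a library nor whether both sides came from the same mice is given. No untreated library at 2 m was analysed here, so time after stroke and withdrawal of the drug cannot be told apart.

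Levetiracetam is an anti-seizure drug that binds SV2A, a glycoprotein of synaptic vesicles that regulates transmitter release. After a cortical stroke the opposite hemisphere keeps its tissue but loses callosal partners, and its balance of excitation and inhibition is known to shift. Genes of vesicle release, of glutamate and GABA signalling and of chloride transport set that balance, and glial and vascular genes report on the surrounding tissue.

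With 1 library a side there is no replicate and no test between conditions. Each difference is given as the ratio of 2 m to 1 m LEV, with an exact 95% interval on the tags that covers counting error only, and a gene is counted as higher or lower when the ratio is at least 1.5-fold. The 2 libraries held 16473888 tags at 2 m and 21000367 tags at 1 m LEV, and 3 tags corresponded to 0.182 and 0.143 CPM. In bulk tissue, fewer cells of a type and less RNA per cell cannot be told apart.

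The 2 m library was first set beside the others as a whole. In it 92.3% of tags lay in genes of the table, the lowest share of the 11 libraries, against 96.0% at 1 m LEV and 94.2% to 97.3% in the rest. Of the 15 pairs among the 6 naive and non-infarcted libraries, the 2 compared here had the largest share of genes past 1.5-fold in either direction, 19.8%. The corresponding share was 0.981% between the 7 d libraries with and without the drug, 4.43% between the 1 m libraries with and without it, and 2.77% between naive and 1 m. Large shares were also found without the 2 m library. Between 7 d and 1 m LEV the share was 16.5%, and between 7 d and 1 m 14.4%. Between 7 d LEV and 1 m LEV it was 13.2%, and between 7 d LEV and 1 m 11.4%. The 2 m library was closer to 7 d (9.63%) and to 7 d with the drug (9.96%) than to naive cortex (11.4%) or to 1 m without the drug (16.9%). Within a time point the sides differed less at 1 m LEV (1.27% past 1.5-fold) than at 2 m (7.81%). The labels name no batch, and the part of library preparation in these distances was not tested.

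**Figure D1:**
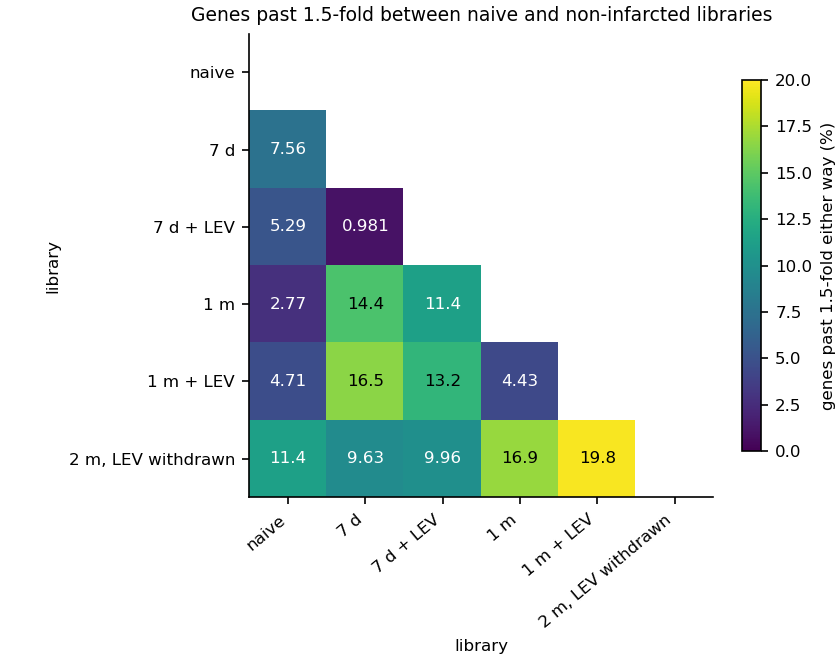
Share of genes past 1.5-fold in either direction (color and number, %) for each pair of the 6 libraries of naive and non-infarcted cortex, 1 library per row and column, among genes with a mean of at least 5 CPM in the pair. The pair compared here, at the lower right, reads 19.8%, and the pair of 7 d libraries reads 0.981%.

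All 13 cortical cell markers were present in both libraries. The excitatory neuron markers Neurod6 and Tbr1, transcription factors of cortical projection neurons, had ratios of 0.961 and 1.14. P2ry12, a purine receptor of resting microglia, stood at 20.4 CPM at 1 m LEV and 25.1 CPM at 2 m, and Cldn5, an endothelial tight junction protein, at 48.0 CPM at 1 m LEV and 56.0 CPM at 2 m. Summed over their listed members, striatal genes went from 608 CPM at 1 m LEV to 802 CPM at 2 m, thalamic genes from 112 to 77.2 CPM and choroid plexus genes from 337 to 175 CPM. In the 4 other libraries these sums ranged from 667 to 835 CPM for striatum, from 109 to 118 CPM for thalamus and from 148 to 516 CPM for choroid plexus. The choroid plexus genes Slc4a5 and Cldn2 had no tag at 2 m, as did the thalamic gene Shox2 at 1 m LEV. Of the 3 choroid plexus genes kept, Ttr was lower (ratio 0.0786) and 2 had ratios above 1, so the fall in that sum came from Ttr. Of 10 striatal genes kept 2 were higher, while of 7 thalamic genes 2 were lower and 1 was higher. Over all genes kept, 10.5% were higher and 9.30% lower. How far the dissected borders contributed to the ratios was not tested.

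At 2 m, 1314 genes were at least 1.5-fold higher (10.5% of those kept) and 1168 were at least 1.5-fold lower (9.30%). The central part of the distribution was narrow, with 1 gene in 20 below a ratio of 0.579 and 1 in 20 above 1.69, and the median log2 ratio was 0.04. Past 2-fold there were 209 higher and 331 lower genes, so the lower tail was the longer. The interval of every gene past 1.5-fold lay clear of 1, which the limits of 5 CPM and 1.5-fold at these depths largely fixed in advance. The smallest count among genes kept was 7 tags at 2 m and 53 at 1 m LEV. The spread between animals is not in the interval. The split depended on scaling: with TMM factors, which shift every log2 ratio by -0.06, 1011 genes were higher and 1419 lower, and the share of higher genes among those past 1.5-fold went from 52.9% to 41.6%. Among biotypes, 35 of 63 processed pseudogenes (55.6%) were lower, against 8.50% of protein-coding genes.

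The infarcted side gave the same comparison with no library in common. There 1522 of the same genes were higher at 2 m (12.1%) and 683 lower (5.44%). Of the genes higher on the non-infarcted side, 806 (61.3%) were also higher on the infarcted side, where they made up 53.0% of the higher genes. Of the lower genes, 501 (42.9%) were lower on both sides, which is 73.4% of those lower on the infarcted side. Across the 12555 genes the log2 ratios of the 2 sides had a Pearson correlation of 0.782, a description across genes, which are not independent replicates. Only 10 genes were past 1.5-fold in opposite directions.

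**Figure D2:**
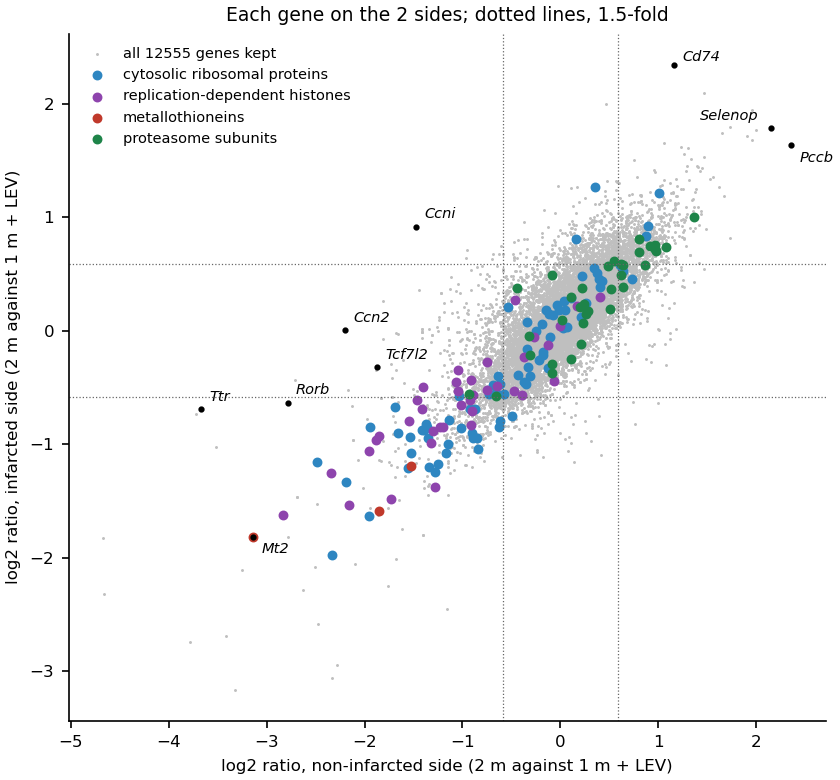
Log2 ratio of 2 m to 1 m LEV for each of the 12555 genes on the non-infarcted side (horizontal) and the infarcted side (vertical), with 4 gene families in color and dotted lines at 1.5-fold. The histone and metallothionein genes lie toward the lower left, proteasome genes toward the upper right, and Rorb, Ccn2 and Tcf7l2 are far lower on the non-infarcted side than on the infarcted side.

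The place of both libraries among the others is given as a description, since genes past 1.5-fold between them tend to have both at the extremes. Among the higher genes, 682 (51.9%) had the 2 m library above and the 1 m LEV library below all 4 other naive and non-infarcted libraries, in 363 only the 2 m library lay outside that range, and in 224 only the 1 m LEV library; over all genes kept the first arrangement held for 9.80%. Among the lower genes the corresponding counts were 463 (39.6%), 321 and 238, and the share over all genes kept was 6.57%. By a stricter reading, 235 of the lower genes (20.1%) were at least 1.5-fold below every one of the 4 other libraries at 2 m. Of the higher genes, 63 (4.79%) were as far above them. The calls rest on the same 2 m values, and these shares were not computed over all genes kept. Of those 235, 179 (76.2%) were also at least 1.5-fold below the infarcted side at 2 m, against 28.3% of all lower genes. Of those 63, 6 (9.52%) were as far above it, against 2.44% of all higher genes. Both subsets were picked by the same 2 m value that is compared here, so larger shares in them are built in. Over all genes kept, 809 (6.44%) were that far below the infarcted side and 67 (0.534%) that far above it. The 1 m LEV library differed from its own infarcted side by 1.5-fold in the direction of the call for 1 of the lower genes (0.0856%) and 26 of the higher genes (1.98%). Few genes differed between those sides at all, 1.27% in either direction among genes with a mean of at least 5 CPM in that pair. In 859 of the higher genes (65.4%) both 7 d libraries were above both naive cortex and 1 m, as they were in 38.03% of all genes kept. In 593 of the lower genes (50.8%) both lay below, against 23.2% of all genes kept.

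Metallothioneins, small cysteine-rich proteins that bind zinc and copper, had some of the lowest ratios, and all 3 that were kept (Mt1, Mt2 and Mt3) were lower at 2 m. Their genes lie side by side on chromosome 8, and a metal-sensing transcription factor acts on the first 2 through a short metal response element. The promoters are shown because the 3 genes moved together while their promoters differ. Each runs from 250 bases before to 30 bases after the RefSeq start (GRCm38.p6, plus strand), at chr8:94178839-94179118, chr8:94172368-94172647 and chr8:94152357-94152636. Capitals mark the metal response core TGCGCNC or TGCACNC on either strand.
Mt1: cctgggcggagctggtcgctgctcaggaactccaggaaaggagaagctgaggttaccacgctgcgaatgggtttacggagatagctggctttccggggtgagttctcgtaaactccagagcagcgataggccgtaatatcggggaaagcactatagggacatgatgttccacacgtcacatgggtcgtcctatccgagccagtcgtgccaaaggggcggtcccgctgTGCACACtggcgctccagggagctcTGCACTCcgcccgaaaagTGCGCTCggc
Mt2: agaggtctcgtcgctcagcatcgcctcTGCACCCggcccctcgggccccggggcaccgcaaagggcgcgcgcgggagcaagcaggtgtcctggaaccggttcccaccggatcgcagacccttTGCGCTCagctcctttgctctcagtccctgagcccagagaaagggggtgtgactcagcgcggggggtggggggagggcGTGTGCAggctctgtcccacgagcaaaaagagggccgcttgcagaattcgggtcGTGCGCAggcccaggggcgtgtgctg
Mt3: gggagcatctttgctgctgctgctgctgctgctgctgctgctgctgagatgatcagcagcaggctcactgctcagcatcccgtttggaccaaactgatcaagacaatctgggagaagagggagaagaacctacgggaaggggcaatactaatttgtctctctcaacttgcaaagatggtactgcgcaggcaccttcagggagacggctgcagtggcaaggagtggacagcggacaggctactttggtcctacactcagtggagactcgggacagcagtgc
The core occurred 3 times for Mt1, 4 times for Mt2 and not at all for Mt3 in these windows, overlapping matches counted. Of the 32851 promoters of the RefSeq table cut to the same 280 bases, 24.1% held at least 1 core, 1.73% at least 3 and 0.405% at least 4. A match describes the letters only.

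Mt2 stood at 224 CPM in naive cortex, 256 at 7 d, 296 at 7 d LEV and 173 at 1 m, then at 521 at 1 m LEV and 59.2 at 2 m. The 1 m LEV library was the highest of the 6 and the 2 m library the lowest, and the ratio was 0.114 (95% interval 0.106 to 0.121). Mt1 had 568 CPM in naive cortex, 519 at 7 d, 558 at 7 d LEV and 494 at 1 m, with 1059 CPM at 1 m LEV and 369 CPM at 2 m, in the same order, and its ratio was 0.348 (95% interval 0.338 to 0.358). Mt3, the brain-enriched member, which was chosen after its values were seen, was at 2063 CPM at 1 m LEV and 572 CPM at 2 m against 1060.3 to 1411 CPM in the 4 others, a ratio of 0.277 (95% interval 0.271 to 0.283). On the infarcted side the 3 ratios were 0.438, 0.284 and 0.333, so the genes were lower on both sides, with the levels at 2 m under those of every reference library on the non-infarcted side.

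Most replication-dependent histone genes kept were lower. They encode the core histones packaged onto newly made DNA, and their transcripts end in a stem-loop in place of a poly(A) tail. Of the 38 kept, 28 were lower and none was higher, with ratios from 0.140 to 1.32, and their median log2 ratio was -1.03, against -0.59 on the infarcted side, where 19 were lower. Over all genes kept, 9.30% were lower and 10.5% higher, and 5.44% were lower on the infarcted side. The family was chosen after its values were seen, and its near-identical copies can share tags, so single members are uncertain. The promoters of H4c9, which had the lowest ratio of the family, and of H3c11 and H3c10, chosen after their values were seen, are shown over the same 280 bases, with the CCAAT box on either strand and TATAAA on the strand of the gene in capitals (GRCm38.p6, chr13:22041333-22041612 and chr13:21783368-21783647 on the minus strand, chr13:21717378-21717657 on the plus strand).
H4c9: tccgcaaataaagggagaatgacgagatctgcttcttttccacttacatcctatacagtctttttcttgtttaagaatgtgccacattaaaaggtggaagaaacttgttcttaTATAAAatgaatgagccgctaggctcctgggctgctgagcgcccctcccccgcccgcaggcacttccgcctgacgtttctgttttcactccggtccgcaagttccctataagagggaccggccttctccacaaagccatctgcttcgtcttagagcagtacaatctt
H3c11: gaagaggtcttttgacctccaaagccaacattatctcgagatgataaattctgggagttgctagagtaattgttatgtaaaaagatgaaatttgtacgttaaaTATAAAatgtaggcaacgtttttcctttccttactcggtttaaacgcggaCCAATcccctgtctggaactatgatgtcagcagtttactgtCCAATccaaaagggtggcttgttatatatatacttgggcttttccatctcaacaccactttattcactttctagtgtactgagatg
H3c10: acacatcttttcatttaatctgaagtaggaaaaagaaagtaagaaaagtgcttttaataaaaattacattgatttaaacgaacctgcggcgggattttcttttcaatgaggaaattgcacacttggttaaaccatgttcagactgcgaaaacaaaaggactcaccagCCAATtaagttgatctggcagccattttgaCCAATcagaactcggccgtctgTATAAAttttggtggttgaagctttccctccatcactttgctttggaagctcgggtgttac
Of the 33 kept histone genes with a RefSeq promoter, 29 (87.9%) held a CCAAT box and 15 (45.5%) held TATAAA, against 36.1% and 8.02% of all promoters in the table. Matches were counted anywhere in the 280 bases, whatever their distance from the start. The H4c9 window held no CCAAT box, and those of H3c11 and H3c10 held 2 each. H4c9, an H4 gene, was at 14.6 to 17.5 CPM in the 4 reference libraries, 36.3 CPM at 1 m LEV and 5.10 CPM at 2 m, so the libraries compared lay on opposite sides of the others. H3c11, an H3 gene, showed 90.8 to 106 CPM in the references and 114 CPM at 1 m LEV and 30.8 CPM at 2 m, a ratio of 0.271 (95% interval 0.246 to 0.298). H3c7 and H3c1, also H3 genes, had ratios of 0.197 and 0.223, and H3f3a, a replication-independent H3.3 gene with a poly(A) tail, had 0.352.

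Cytosolic ribosomal proteins, the protein part of the translating ribosome, were lower as a family chosen after its values were seen. Over all genes kept, 9.30% were lower and 10.5% higher. Of the 79 ribosomal protein genes kept, 36 were lower and 6 higher, with ratios from 0.178 to 2.01. Their summed level was 43747 CPM at 1 m LEV and 27836 CPM at 2 m, against 38923 to 48923 CPM in the 4 other libraries. Rpl39, a small protein of the exit tunnel, stood at 518 CPM in naive cortex, 459 at 7 d, 486 at 7 d LEV and 571 at 1 m, with 784 CPM at 1 m LEV and 139.6 CPM at 2 m, so that 2 m was lowest and 1 m LEV highest. Rps15a, of the small subunit, had 924 CPM in naive cortex, 636 at 7 d, 632 at 7 d LEV and 1233 at 1 m, with 1009 CPM at 1 m LEV and 221 CPM at 2 m, and here the 1 m LEV library was within the range of the others. The higher members included Rps6, the substrate of S6 kinase, which was at 263 to 522 CPM in the references and at 140.0 CPM at 1 m LEV and 282 CPM at 2 m; its ratio of 2.01 came from a low value at 1 m LEV. Many ribosomal protein genes have processed copies, and 13 of 19 named ribosomal pseudogenes were lower too, so tags may be divided between a gene and its copies.

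Set beside 9.30% lower and 10.5% higher among all genes kept, subunits of the respiratory chain and ATP synthase leaned the same way. Of 81, 18 were lower and 5 higher (median log2 ratio -0.20). The lower ones included the small accessory subunits Cox7c and Cox7b of cytochrome oxidase, with ratios of 0.301 and 0.392, and Atp5e, the epsilon subunit of ATP synthase, at 0.311. Cox7c was at 585 CPM in naive cortex, 349 at 7 d, 313 at 7 d LEV and 638 at 1 m, with 739.9 CPM at 1 m LEV and 222 CPM at 2 m. Ndufs1, the largest subunit of complex I, went the other way, with 78.4 to 141 CPM in the references, 70.3 CPM at 1 m LEV and 167 CPM at 2 m and a ratio of 2.38 (95% interval 2.23 to 2.53). Of the 35 proteasome subunits, which form the protease that degrades ubiquitin-tagged proteins, 13 were higher and 2 lower, led by the ATPase subunit Psmc5 with 154 CPM at 1 m LEV and 396 CPM at 2 m and 148 to 272 CPM in the references. Mitochondrial ribosomal proteins were not shifted in the same sense: 6 of 78 (7.69%) were lower and 5 (6.41%) higher, both under the shares over all genes kept. These families were also chosen after their values were seen.

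Transcripts of ribosomal proteins, histones and metallothioneins are known to be short, and among all genes the shortest transcripts were lower most often. Of the 12548 genes with an annotated length, 31.4% of the 452 with a longest transcript under 500 nt were lower, as were 18.6% of the 716 between 500 and 1000 nt and 7.53% of the 2272 between 1000 and 2000 nt. The share did not keep falling with length: it was 6.60% of the 4710 between 2000 and 4000 nt, 9.20% of the 3641 between 4000 and 8000 nt and 9.64% of the 757 above, with median log2 ratios of 0.09, 0.01 and -0.04. Outside the ribosomal, histone, metallothionein and respiratory families, the same order held below 2000 nt for protein-coding genes, with 37.1% of 35 genes under 500 nt, 12.9% of 449 between 500 and 1000 nt and 6.89% of 2032 between 1000 and 2000 nt. The first exon moved the other way: 17.6% of genes with a first exon under 100 nt were higher and 7.78% lower, whereas of those with a first exon of at least 800 nt 7.71% were higher and 14.4% lower. On the infarcted side the median log2 ratio was also lowest in the shortest class, at -0.15 against -0.20 here. RNA quality values were not used here, and the part of transcript length in these ratios was not tested.

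**Figure D3:**
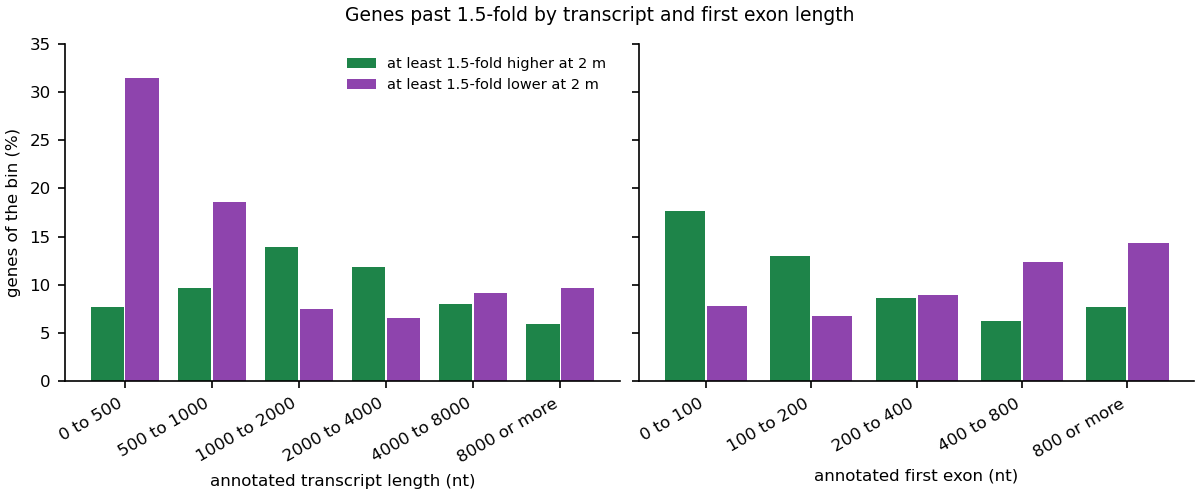
Share of genes (%) that were at least 1.5-fold higher or lower at 2 m, by annotated length of the longest transcript (left) and of its first exon (right), for the genes kept. The share of lower genes is 31.4% in the shortest transcript class and 6.60% between 2000 and 4000 nt.

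The highest ratios belonged to genes of several functions. Selenop, the plasma and brain carrier of selenium, was at 177 CPM in naive cortex, 259 at 7 d, 209 at 7 d LEV and 176 at 1 m, then 125 at 1 m LEV and 552 at 2 m. The 1 m LEV library was the lowest and 2 m the highest of the 6, and the ratio was 4.43 (95% interval 4.24 to 4.63). Pccb, the beta subunit of mitochondrial propionyl-CoA carboxylase, had the highest ratio, 5.12 (95% interval 3.78 to 7.06), from 2.52 CPM at 1 m LEV and 12.9 CPM at 2 m, but it is weakly expressed, with 1.67 to 6.23 CPM in the references. Spop, a substrate adaptor of cullin-3 ubiquitin ligases, had 48.4 to 87.9 CPM in the references and 39.0 CPM at 1 m LEV and 156 CPM at 2 m. Id4, which blocks basic helix-loop-helix factors in neural progenitors and astrocytes, was at 74.9 CPM in naive cortex, 107 at 7 d, 105 at 7 d LEV and 79.7 at 1 m, with 48.2 CPM at 1 m LEV and 187 CPM at 2 m, and Srsf3, a splicing factor, at 65.7 CPM at 1 m LEV and 245 CPM at 2 m against 101 to 205 CPM. On the infarcted side the ratios were 3.45 for Selenop, 3.11 for Pccb, 3.42 for Spop, 3.20 for Id4 and 3.28 for Srsf3.

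In some of the highest genes 2 m stood apart from all 5 other naive and non-infarcted libraries. Dlk1, an imprinted ligand-like protein of the Notch family, was at 3.56 CPM in naive cortex, 3.22 at 7 d, 2.60 at 7 d LEV and 3.41 at 1 m and at 3.71 at 1 m LEV, and reached 14.4 CPM at 2 m, a ratio of 3.89. The 5 earlier libraries lay within a narrow band and only 2 m was high. The infarcted side went from 4.27 CPM at 1 m LEV to 16.4 CPM at 2 m. Thbs1, the matrix glycoprotein thrombospondin 1, followed the same course with 2.45 to 4.58 CPM in the references and 2.95 CPM at 1 m LEV and 9.29 CPM at 2 m, although the infarcted side already held 11.99 CPM at 7 d. Adamts1, a matrix protease, and Cdk6, a cell cycle kinase, both chosen after their values were seen, were at 14.3 and 7.59 CPM at 2 m against at most 6.24 and 3.40 CPM in the other 5 non-infarcted or naive libraries. In contrast, Clip3, a linker of microtubules and vesicles, and Rims4, a presynaptic active zone protein, were already high at 7 d: Clip3 was 88.0 CPM at 7 d, 35.4 CPM in naive cortex and 31.9 CPM at 1 m LEV and 109.9 CPM at 2 m, while Rims4 was 17.3 CPM at 7 d and 5.71 CPM at 1 m LEV and 18.9 CPM at 2 m. Haus7 of the augmin complex, Ppie, a spliceosomal cyclophilin, Srgap2, a regulator of spine maturation, S100a16, a calcium-binding protein, and Scd1, the stearoyl-CoA desaturase, completed the list with ratios from 2.77 to 3.19.

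**Figure D4:**
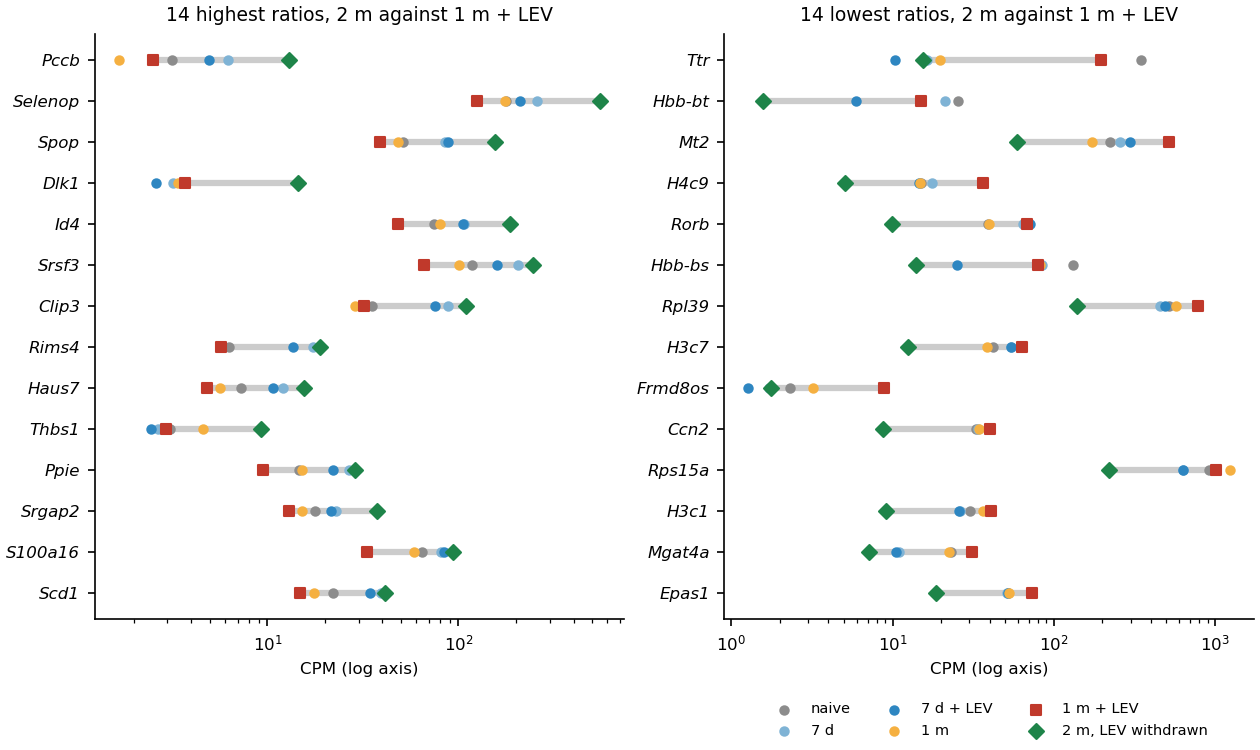
CPM on a log axis of the 14 genes with the highest and the 14 with the lowest ratio, 1 point for each of the 6 libraries of naive and non-infarcted cortex, with a gray bar joining 1 m LEV (red square) to 2 m (green diamond). Selenop spans 125 to 552 CPM and Rorb 68.6 to 9.96 CPM, and for Ttr the 2 m library sits among the low references while naive cortex is the highest.

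Rorb and Ccn2, which mark particular cortical layers, were among the lowest ratios. Layer genes as a group were not: Cux1, Cux2, Fezf2, Foxp2, Rasgrf2, Etv1 and Rspo1 were not past 1.5-fold, while Bcl11b was lower. Rorb, a nuclear receptor of layer 4 neurons, was at 39.1 CPM in naive cortex, 64.4 at 7 d, 71.3 at 7 d LEV and 39.8 at 1 m, then 68.6 at 1 m LEV and 9.96 at 2 m, a ratio of 0.145 (95% interval 0.123 to 0.171). All 5 earlier libraries were at least 39.1 CPM, and the infarcted side at 2 m held 42.6 CPM. Ccn2, a matricellular protein that in cortex marks the deepest layer, was at 32.9 to 39.5 CPM in the references and at 8.68 CPM at 2 m (ratio 0.217, 95% interval 0.180 to 0.259), whereas the infarcted side went from 36.8 to 36.9 CPM, a ratio of 1.00. Tcf7l2, a Wnt effector listed as a thalamic marker, was likewise at 5.16 CPM at 2 m against 17.3 to 20.8 CPM in the references, and went from 26.3 to 21.03 CPM on the infarcted side. For these 3 genes the ratio on the infarcted side was nearer to 1, and for Rorb it was 0.644.

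Epas1, the hypoxia-inducible factor HIF-2 alpha, held 51.0 to 52.6 CPM in the references, a narrow range, with 73.3 CPM at 1 m LEV and 18.6 CPM at 2 m, and Mgat4a, a glycosyltransferase that branches N-glycans, was at 31.1 CPM at 1 m LEV and 7.10 CPM at 2 m with 7 d values of 10.9 and 10.5 CPM. Frmd8os, an RNA antisense to Frmd8, was at 8.86 CPM at 1 m LEV and 1.76 CPM at 2 m and within the references at 2 m; whether counting used the strand is not given, so its tags cannot be separated with certainty from those of its partner. Ttr, the thyroid hormone carrier made by choroid plexus, had the lowest ratio of the named genes, 0.0786 (95% interval 0.0690 to 0.0893). It was at 349.7 CPM in naive cortex, 16.3 at 7 d, 10.4 at 7 d LEV, 19.8 at 1 m, 195 at 1 m LEV and 15.4 at 2 m, so the 2 m value was among 4 low libraries and naive cortex and 1 m LEV were the high ones. The beta-globins Hbb-bs and Hbb-bt, near-identical neighbours whose tags can be divided between them, went from 79.7 to 14.02 CPM and from 15.05 to 1.58 CPM, and across the references Hbb-bs ranged from 25.2 to 132 CPM. Summed over the 7 listed blood genes the level was 101 CPM at 1 m LEV and 20.4 CPM at 2 m, and the part of residual blood in other ratios was not tested.

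Most lists of neuronal identity and signalling had medians below that of all genes. Of 16 excitatory neuron genes, 3 were lower and none higher, where 9.30% and 10.5% of all genes kept were. Their median log2 ratio was -0.14, against 0.04 for all genes and 0.24 for the list on the infarcted side. Slc17a7, which encodes the vesicular glutamate transporter VGLUT1, was at 743 CPM in naive cortex, 609.5 at 7 d, 797 at 7 d LEV and 861 at 1 m, with 1738 CPM at 1 m LEV and 531 CPM at 2 m. The 1 m LEV value was above the highest reference and the 2 m value below the lowest, and the ratio was 0.305 (95% interval 0.298 to 0.312); on the infarcted side it was 0.532. Bcl11b, a transcription factor of deep-layer projection neurons, had a ratio of 0.467 from 92.9 CPM at 1 m LEV and 43.4 CPM at 2 m.

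Sv2a, the target of the drug, was nearly level: 137 CPM in naive cortex, 148 at 7 d, 158 at 7 d LEV and 139.7 at 1 m, with 142 CPM at 1 m LEV and 129 CPM at 2 m. Its ratio was 0.906 (95% interval 0.856 to 0.958), and 1.11 on the infarcted side. Of the 22 SV2 and vesicle release genes, 2 were higher and 3 lower, where 10.5% and 9.30% of all genes kept were. Syn1, synapsin 1, which tethers vesicles to the cytoskeleton, was at 357 CPM in naive cortex, 248 at 7 d, 231 at 7 d LEV and 322 at 1 m, with 406 CPM at 1 m LEV and 152 CPM at 2 m, so the 2 libraries lay on opposite sides of the references (ratio 0.374, 95% interval 0.357 to 0.391). The vesicle SNAREs Vamp1 and Vamp2 had ratios of 0.512 and 0.618, and 0.872 and 0.896 on the infarcted side. Stx1a, the plasma membrane SNARE syntaxin 1A, was higher, at 90.4 CPM at 1 m LEV and 186 CPM at 2 m against 109.5 to 208 CPM, and the calcium sensor Syt1 had a ratio of 0.916.

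On the GABA side, 3 of 9 genes of synthesis, transport and GABA-B receptors were lower and none was higher, against 9.30% and 10.5% of all genes kept, and the median log2 ratio was -0.34. Gad2, the glutamate decarboxylase of nerve terminals, was at 87.6 CPM at 1 m LEV and 56.0 CPM at 2 m, below the references at 69.2 to 83.0 CPM, whereas Gad1, the other decarboxylase, had a ratio of 0.821. Slc6a11, the GABA transporter GAT3, and Gabbr1, a GABA-B subunit, had ratios of 0.635 and 0.660, both from a high value at 1 m LEV. Of 13 GABA-A subunits, which form chloride channels opened by GABA, Gabra3 and Gabrg1 were higher, with ratios of 1.60 and 1.60, and 2 were lower, including Gabra2 at 0.665, which stood at 48.9 CPM at 1 m LEV and 32.5 CPM at 2 m against 42.2 to 66.1 CPM in the references. Among interneuron genes 3 of 18 were lower, namely the cannabinoid receptor Cnr1 (0.488) and the peptides Vip (0.560) and Cck (0.583); Calb2, calretinin, was higher at 1.68, and Pvalb and Sst stood at 0.805 and 0.830.

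Chloride transporters set the reversal potential of GABA currents. Slc12a2, the importer NKCC1, was at 20.2 CPM in naive cortex, 22.6 at 7 d, 22.7 at 7 d LEV and 29.4 at 1 m, with 40.8 CPM at 1 m LEV and 15.9 CPM at 2 m; the 1 m LEV library was the highest of the 6 and 2 m the lowest, and the ratio was 0.390 (95% interval 0.338 to 0.448). Slc12a5, the neuronal exporter KCC2, had 408 CPM in naive cortex, 335 at 7 d, 475 at 7 d LEV and 342 at 1 m, with 459 CPM at 1 m LEV and 305 CPM at 2 m, and a ratio of 0.664 (95% interval 0.642 to 0.687). On the infarcted side their ratios were 0.627 and 0.696. Of the 9 genes of the list 3 were lower, Slc12a9 being the other one, and Slc12a4, the exporter KCC1, was higher at 2.02. Over all genes kept, 9.30% were lower and 10.5% higher.

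The sodium, calcium, HCN and potassium channel lists held no gene that was higher, against 10.5% of all genes kept. Of 21 sodium, calcium and HCN channel genes 4 were lower, with a median log2 ratio of -0.26, and of 29 potassium channel genes also 4, with -0.19, where 9.30% of all genes kept were lower. Scn2b, an auxiliary sodium channel subunit, was at 105 CPM at 1 m LEV and 51.6 CPM at 2 m against 104 to 129 CPM in the references. On the infarcted side Scn2b had a ratio of 1.26. Cacna1d and Cacna1a, calcium channel pores, had ratios of 0.540 and 0.643. Kcnq3, a channel of the M-current that limits repetitive firing, had a ratio of 0.552, the inward rectifier Kcnj4 0.526 and the sodium-activated channel Kcnt1 0.636. These 3 had 2 m values inside the range of the references and 1 m LEV values above it.

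Among ionotropic glutamate receptors, Grin1, the obligatory NMDA receptor subunit, was at 289 CPM in naive cortex, 243 at 7 d, 293 at 7 d LEV and 267 at 1 m, with 260.1 CPM at 1 m LEV and 118 CPM at 2 m, so that 2 m alone was low (ratio 0.456, 95% interval 0.432 to 0.480; infarcted side 0.860). Grik2, a kainate receptor, had a ratio of 0.596, and Gria1, an AMPA receptor subunit, was higher at 1.57 with 246 CPM at 1 m LEV and 386 CPM at 2 m. No metabotropic receptor or scaffold gene was past 1.5-fold. Of 10 neuropeptide genes 4 were lower, among them Adcyap1 (0.518), Cartpt (0.576) and Tac2 (0.611), and the granin Scg2 was higher at 1.61, while Npy stood at 1.01. Of 12 neurotrophin and axon growth genes 4 were lower, including Sema3a, a repulsive guidance cue (0.508), and Ntrk3, the neurotrophin-3 receptor (0.523). Beside these lists, 9.30% of all genes kept were lower and 10.5% higher. Gap43, a growth cone protein, was higher: it held 219 to 289 CPM in the references and 190.3 CPM at 1 m LEV and 361 CPM at 2 m (ratio 1.89, 95% interval 1.82 to 1.97). Bdnf had 0.874.

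Immediate early genes, which follow neuronal firing, did not move together. Of 22, 2 were higher and 5 lower, where 10.5% and 9.30% of all genes kept were. Junb, an AP-1 subunit, was at 35.7 CPM in naive cortex, 85.2 at 7 d, 87.8 at 7 d LEV and 41.5 at 1 m, then 47.4 at 1 m LEV and 128 at 2 m, the highest of the 6, with a ratio of 2.70 (95% interval 2.50 to 2.91) and 2.08 on the infarcted side. Nptx2, a synaptic pentraxin, Egr2, a zinc finger factor, and the kinase Sik1 were lower at 0.509, 0.588 and 0.610. Fos, Npas4 and Arc stood at 0.987, 0.936 and 1.204, and Fos was higher at 7 d (20.7 CPM) than in either library compared (12.4 CPM at 1 m LEV and 12.3 CPM at 2 m).

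**Figure D5:**
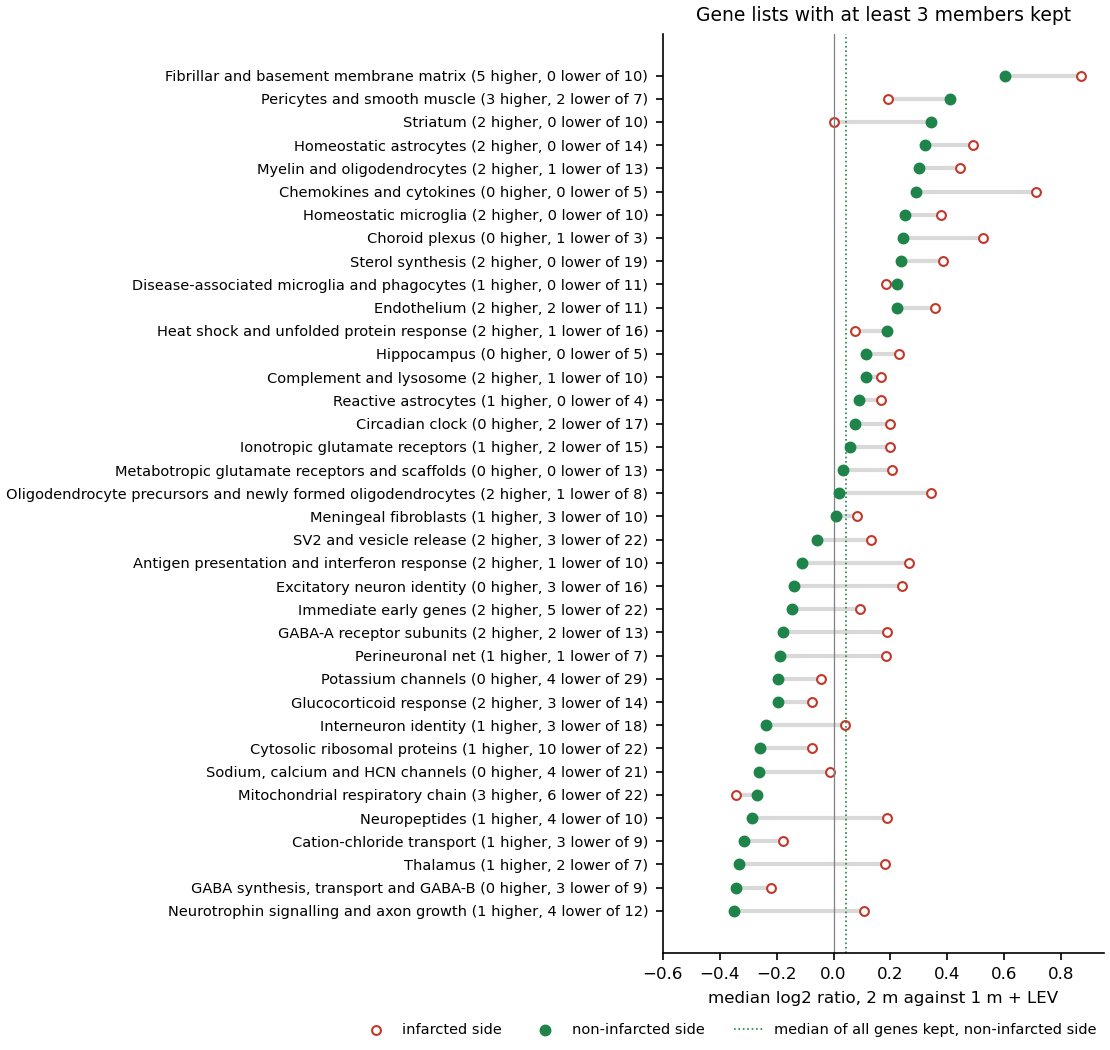
Median log2 ratio of 2 m to 1 m LEV for each gene list with at least 3 members kept, on the non-infarcted side (filled) and the infarcted side (open), with the number of members at least 1.5-fold higher and lower on the non-infarcted side; the dotted line is the median of all genes kept, 0.04. Matrix, astrocyte and myelin lists lie to the right, and neuronal, ribosomal and GABA lists to the left.

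Glial and vascular lists had medians above 0, except that the oligodendrocyte precursor median of 0.02 was below 0 after centring or with TMM factors. Of 14 homeostatic astrocyte genes 2 were higher and none lower (median log2 ratio 0.32), where 10.5% and 9.30% of all genes kept were. Ndrg2, an astrocyte protein of the N-myc downstream family, was at 275 CPM in naive cortex, 351 at 7 d, 293 at 7 d LEV and 242 at 1 m, with 198 CPM at 1 m LEV and 372 CPM at 2 m (ratio 1.88, 95% interval 1.81 to 1.95), and Aldoc, aldolase C, had a ratio of 1.54, which was under 1.5 with TMM factors. Gfap, the astrocyte filament, stood at 1.10 (95% interval 1.04 to 1.15), Aqp4 at 1.35, Kcnj10 at 1.11 and the glutamate transporter Slc1a2 at 0.853. Of 13 myelin genes, Mbp and Mobp, both structural myelin proteins, were higher, and Aspa, aspartoacylase, was lower at 0.580. Mbp stood at 1740.2 CPM in naive cortex, 2032 at 7 d, 1515 at 7 d LEV and 1476 at 1 m, with 1356 CPM at 1 m LEV and 2532 CPM at 2 m, the lowest and the highest of the 6 libraries, and its ratio was 1.87 (95% interval 1.84 to 1.90). Olig2 and Pdgfra, of the oligodendrocyte lineage, were higher at 2.18 and 1.78, and Olig1 lower at 0.617.

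Of 10 homeostatic microglia genes 2 were higher and none lower, and of 11 genes of disease-associated microglia 1 was higher, against 10.5% of all genes kept. Cx3cr1, the fractalkine receptor, was at 13.9 CPM at 1 m LEV and 21.97 CPM at 2 m with 13.1 to 20.6 CPM in the references, and Selplg had a ratio of 1.75; Aif1 and Cd68 stood at 1.12 and 0.678. C1qc, a subunit of complement C1q, was lower (104 CPM at 1 m LEV and 54.9 CPM at 2 m) and Serping1, the C1 inhibitor, higher (4.71 CPM at 1 m LEV and 10.9 CPM at 2 m). B2m, the light chain of MHC class I, was at 47.3 CPM in naive cortex, 81.2 at 7 d, 62.8 at 7 d LEV and 37.8 at 1 m, with 70.4 CPM at 1 m LEV and 29.2 CPM at 2 m (ratio 0.415, 95% interval 0.373 to 0.460), whereas Cd74, the MHC class II invariant chain, was at 6.10 CPM at 1 m LEV and 13.6 CPM at 2 m against 4.94 to 7.84 CPM and Isg15, a ubiquitin-like interferon target, at 6.67 CPM at 1 m LEV and 14.7 CPM at 2 m. On the infarcted side Cd74 went from 11.9 to 60.2 CPM. Only 5 of 16 chemokine and cytokine genes were kept, and none of these was past 1.5-fold. Of 4 reactive astrocyte genes kept 1 was higher, and perineuronal net genes gave 1 higher and 1 lower of 7.

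Of 10 matrix genes kept, 5 were higher and none lower, with a median log2 ratio of 0.60 and 0.87 on the infarcted side. With a limit of 1 CPM the median on the non-infarcted side was 0.98. Of all genes kept 10.5% were higher. Besides Thbs1 and Sparc these were Bgn, the proteoglycan biglycan (8.24 CPM at 1 m LEV and 21.8 CPM at 2 m, 7.43 to 15.1 CPM in the references), and the collagen I chains Col1a1 (16.0 CPM at 1 m LEV and 37.8 CPM at 2 m) and Col1a2, which shares its tags with a predicted gene. The references spread widely for Col1a1, from 18.01 to 68.3 CPM, and its 2 m value lay inside them. Of 7 mural genes 3 were higher and 2 lower. Tagln and Acta2, contractile proteins of smooth muscle, had ratios of 2.40 and 2.05, with 2 m values inside the references. Among the pericyte genes, Vtn and Notch3 were lower at 0.456 and 0.504, while Pdgfrb and Rgs5, chosen after their values were seen, stood above 1 at 1.10 and 1.33. Among endothelial genes Vwf was higher at 2.04, and Slc2a1, the glucose transporter of the barrier, and Mfsd2a were lower at 0.610 and 0.590. The summed levels of meningeal fibroblast genes were 3111 CPM at 1 m LEV and 2781 CPM at 2 m, within which Mgp and Aldh1a2 were lower at 0.437 and 0.319; their part in the matrix ratios was not tested.

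Stress, hormone and metabolic lists gave mixed counts, set beside 10.5% higher and 9.30% lower among all genes kept. Of 14 glucocorticoid-responsive genes 3 were lower, the metallothioneins Mt1 and Mt2 among them with Nfkbia, the inhibitor of NF-kappa B (0.439), and 2 were higher, including Cdkn1a (1.84). Fkbp5, a chaperone that glucocorticoids induce, had a ratio of 0.851. Clock genes showed 2 lower of 17, Hlf (0.488) and Nfil3 (0.612), with Dbp at 1.05. Of 19 sterol genes 14 had ratios above 1 and 2 were past 1.5-fold, Sc5d, a sterol desaturase (1.76), and Srebf2, the master regulator of the pathway (1.64). Among chaperones Hspa8 and Pdia4 were higher at 1.58 and 1.68, and Hspa1a, the inducible HSP70, lower at 0.601. Of the striatal genes Adora2a and Gng7 were higher at 2.21 and 2.05, beside the striatal sums given above. Both ependymal genes kept were higher, and no kept gene of the hippocampus, olfactory bulb or cell cycle lists was past 1.5-fold.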

How the data were processed

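The deposited values are CPM, made by the authors by scaling CAGE tags to each library's total, in 1 table of 11 libraries. Per the labels' protocols, RNA came from whole cerebral cortex, cDNA was primed with random primers and capped ends were trapped. HISAT2 2.0.5, BWA 0.7.17 and the build GRCm38 are named in the submitters' processing notes, with DESeq2 1.20.0, and no role is stated; alignment, counting and strand settings are not given in the sources used here.

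Every CPM was a whole number of tags over the library total within 0.01 of a tag, so tags were recovered (100% of values). Ratios carry exact conditional binomial 95% intervals, tested on simulated data. Genes were matched without version to GENCODE M21 (22335 of 22377); 769 of the genes kept share their tags with a neighbour within 5 kb (counts within 5% in every library). Named genes are the 14 highest and 14 lowest ratios with an established symbol and unshared tags, up to 4 members per list past 1.5-fold, and a panel of 26; other names were chosen after their values were seen. Members and the 42 lists were chosen with earlier results of these data known. Promoters are RefSeq, GRCm38.p6; since these match 75.8% of genes kept, promoter composition was not compared over all genes. Groups of 1 library have no replicates, and p-values were not computed. TMM factors came from edgeR 4.0.16 in R 4.3.3, and tables from Python 3.11.15 with pandas 2.3.3, numpy 2.4.6, scipy 1.17.1 and matplotlib 3.10.9. A few genes of the lists are not reported here.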

Additional observations from a re-analysis of the deposited data

Results flagged for a closer look

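Past 1.5-fold in opposite directions on the 2 sides were 10 of the genes kept. The difference between sides was not tested, since each side has 1 library per condition, and the genes were chosen after their values were seen. Ccni, cyclin I, had a ratio of 0.360 on the non-infarcted side (87.6 CPM at 1 m LEV and 31.6 CPM at 2 m) and 1.89 on the infarcted side. Klf2, a flow-responsive endothelial factor, had 0.518 and 1.63, B3galt2, a galactosyltransferase, 0.511 and 1.55, and Glra2, a glycine receptor subunit, 0.621 and 1.60. Zfpm2, a cofactor of GATA factors, had 0.649 and 1.60, Ucp2, a mitochondrial carrier, 0.615 and 1.55, and the noncoding RNA A330102I10Rik 0.655 and 1.68. In the other direction, Chil1, a chitinase-like protein of astrocytes, had 1.99 and 0.643, with 8.38 CPM at 1 m LEV and 16.7 CPM at 2 m on the non-infarcted side and 26.9 and 17.3 CPM on the infarcted side. Lipt2, which attaches lipoate, had 1.67 and 0.645, and the predicted gene Gm37363 1.70 and 0.565. In all 7 genes that were lower on the non-infarcted side, its 2 m library lay below the 4 reference libraries. This was common among all 1168 lower genes. In 463 of them the 2 m library lay below and the 1 m LEV library above these 4, and in 321 only the 2 m library lay outside. The calls rest on the same 2 m values.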

How the results depend on the processing

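Requiring a mean of 1 CPM gave 2057 higher and 1682 lower genes, no expression limit gave 4276 higher and 3446 lower, 2-fold left 209 and 331, and asking that the whole interval lie past 1.5-fold left 613 and 690. The other alternatives (centring, TMM factors, 10 CPM, 1 CPM added, shared tags counted once) kept both counts within 1.5 times, from 1011 to 1281 higher and from 992 to 1419 lower. TMM factors for the sides and for the place among libraries were added after seeing the data and took the genes higher on both sides from 806 to 520. None of the 164 named genes past 1.5-fold changed direction, but Lamp1, Aldoc and Tnr fell under 1.5-fold with centring or TMM factors, as did Rarres2 and Ackr3 with TMM factors, and 6 did with 1 CPM added. List medians close to 0 changed sign. Centring gave -0.0093 for metabotropic glutamate receptors, -0.024 for oligodendrocyte precursors and -0.033 for meningeal fibroblasts. TMM factors gave -0.0297, -0.0443 and -0.0534 for these, and -0.0066 for ionotropic glutamate receptors. A limit of 1 CPM gave -0.0033 for metabotropic receptors, -0.0206 for complement and lysosome, 0.0872 for antigen presentation, -0.13 for meningeal fibroblasts and -0.37 for choroid plexus. It also took the medians of matrix genes to 0.9812, cation-chloride transport to -0.1581, mural genes to 0.273, thalamus to -0.1664, ependyma to 0.0664, hippocampus to 0.0107, blood to -1.9061 and cell cycle to 1.0434, and adding 1 CPM took blood to -2.5318. No paired analysis was possible because each group has 1 library, and for the same reason no library could be left out. Low genes are limited by depth, with 3 tags at 0.182 CPM at 2 m.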
